A study of Mus musculus with 69 samples.

Results

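Leukocytes leave the blood by a fixed sequence of contacts with the vessel wall, and 9 genes that encode molecules of this sequence are described here in mouse lungs exposed to TiO2 nanomaterials (NMs). They are Sele, Selp and Selplg (the endothelial selectins and a leukocyte ligand), Icam1 and Vcam1 (endothelial counter-receptors), Itgam, Itgal and Itgb2 (leukocyte integrin chains) and Pecam1 (a junction molecule). They were chosen by name, through the array probes whose annotated transcript led to these RefSeq symbols, which gave 14 of 41174 probes and 9 of 18753 genes. Earlier results of these data were known when they were chosen. RNA of whole lung tissue from female C57BL/6 mice was labelled with Cy5 and hybridised against a common Universal Mouse Reference RNA in Cy3, with 1 array per mouse. Mice received a single intratracheal instillation of the vehicle (water with 2% serum), or of 18, 54 or 162 µg of either nano-TiO2 material, NRCWE-025 or NRCWE-030, and lungs were taken on day 1 (24 h) or day 28. The mice came at 5 to 7 weeks of age and were acclimatised for 1 to 3 weeks. The 14 groups held 5 arrays each, except NRCWE-025 at 162 µg on day 28 with 4, and both materials were set against the same 5 vehicle lungs of their day.

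In the usual account, P-selectin and E-selectin on activated endothelium catch leukocytes through sugar-bearing ligands such as PSGL-1, and the cells roll. Chemokines then switch the leukocyte integrins to a state that binds ICAM-1 and VCAM-1 on the endothelium, the cells stop, and they cross the junctions with the help of PECAM-1. In lung, neutrophils also leave through narrow capillaries, where rolling plays a smaller part.

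Values are log2 ratios of lung over reference RNA, so they compare arrays for the same gene but not genes with each other. Differences between groups were tested with limma across all 18753 genes, and a gene was called where its Benjamini-Hochberg adjusted p was under 0.05. Intervals are 95% intervals without adjustment for multiple testing. Between 48.2% and 72.2% of probes per array were well above background in Cy5, and no spot was saturated. The groups held few arrays, and what limited the precision was not tested. The markers of lung epithelium (5 of 5) and of endothelium (11 of 11) were well above background on most arrays. So were the heart muscle markers (5 of 5) and fat markers (4 of 4), whose mean levels ranged from 1.14 to 5.04 and from 2.19 to 5.88 among the day 1 controls alone. The arrays correlated with each other at a median of 0.927 or more, except NRCWE-030 18 µg day 1 replicate 3 (0.886) and NRCWE-025 54 µg day 28 replicate 5 (0.898).

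The clearest change among the 9 genes was in lungs given 162 µg of NRCWE-030 on day 1. Vcam1 rose 1.51-fold (log2 difference 0.59 ± 0.13 SE, adjusted p = 0.0175) and Itgam rose 1.38-fold (0.46 ± 0.10 SE, adjusted p = 0.0193), 5 treated against 5 control arrays, limma. Selp was 0.35 higher with an interval from 0.14 to 0.55 and was not called (adjusted p = 0.0805). The 2 called members out of 9 stand against 1.74% of all genes called in this comparison (1.25% higher and 0.491% lower). Of the 9 members 8 were higher than the controls, with a median difference of 0.157 against 0.0044 over all genes. These 8 include Sele, whose probe was near background. They also include Selplg, Itgb2 and Pecam1, which were lower than the control on the slides that held a day 1 control and this group. Because the members were chosen with earlier results of these data known, these shares, here and below, are descriptions and no test of enrichment. No member was called on day 28, with NRCWE-025, or at 18 or 54 µg.

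**Figure D1:**
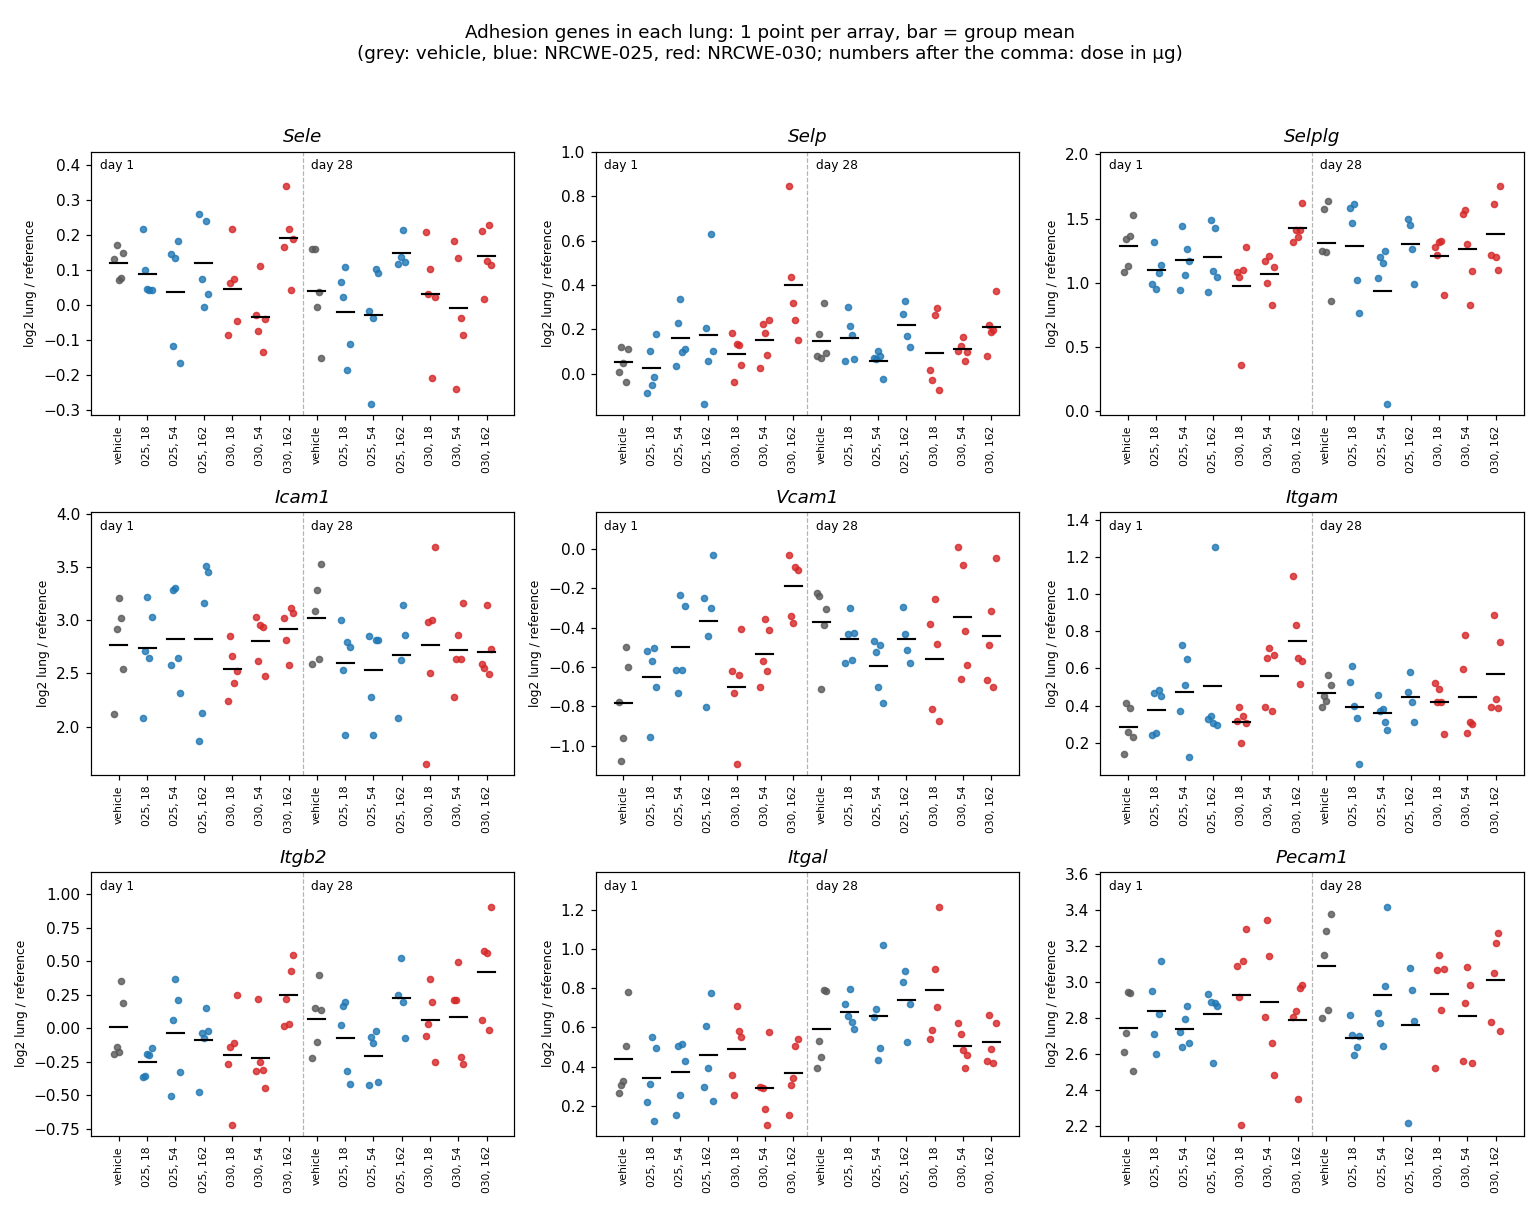
Log2 ratio of lung over reference RNA for the 9 members (1 panel each), with the 14 groups of dose and day on the x axis. Each point is 1 array, bars are group means, and the colours are grey for vehicle, blue for NRCWE-025 and red for NRCWE-030. On day 1 the 5 arrays of NRCWE-030 at 162 µg lie above all 5 controls for Selp, Vcam1 and Itgam, and the Sele probe was well above background on 1 of 69 arrays only.

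The selectins are described first. Sele, on chromosome 1 at 164039614 to 164058487 (GRCm38.p6 for all positions), encodes E-selectin, which activated endothelium makes anew. Its single probe was well above background on 1 of 69 arrays, a control of day 28, so its ratios are those of a spot near background and no fold is given. Neither material brought the probe above background at any dose or day.

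Selp lies on chromosome 1 at 164115264 to 164150026 and encodes P-selectin, which endothelium and platelets hold in granules for release to the surface. The 5 day 1 controls read 0.009, 0.121, 0.050, -0.036 and 0.111. The 5 lungs with 162 µg of NRCWE-030 read 0.845, 0.437, 0.320, 0.240 and 0.154, and the lowest of them was above the highest control. With 162 µg of NRCWE-025 the readings were -0.137, 0.205, 0.058, 0.631 and 0.104, a range that covers all controls. Replicate 1 of NRCWE-030 and replicate 4 of NRCWE-025 were the highest Selp arrays of their groups. At 54 µg of NRCWE-030 Selp was 0.15 ± 0.09 (SD, n = 5) and at 18 µg 0.09 ± 0.09 (SD, n = 5), against 0.05 ± 0.07 (SD, n = 5) in controls.

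The 2 Selp probes did not behave alike. A_51_P211854 was well above background on all 69 arrays and read 1.014, 0.669, 0.677, 0.276 and 0.389 with 162 µg of NRCWE-030 on day 1, against 0.072, 0.134, -0.064, -0.034 and 0.069 in controls. Fitted on its own it was 0.57 higher (interval 0.30 to 0.83) and was called over all probes (adjusted p = 0.0341, limma). A_52_P57843 was well above background on 34 of 69 arrays and differed by 0.13 (adjusted p = 0.776, limma). The Selp value of the gene, the median of both, lies between them.

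Selplg, on chromosome 5 at 113817798 to 113832528, encodes PSGL-1, the leukocyte ligand of P-selectin. Both of its probes were well above background on all arrays. On day 1 it was 1.29 ± 0.18 (SD, n = 5) in controls and 1.42 ± 0.12 (SD, n = 5) with 162 µg of NRCWE-030, a difference of 0.14 with an interval from -0.15 to 0.42 that does not pass the test (adjusted p = 0.782, limma). The lower doses of NRCWE-030 gave 0.98 ± 0.36 (18 µg) and 1.07 ± 0.15 (54 µg) (SD, n = 5 each), both below controls. The 18 µg mean holds the array at 0.36 that stands apart in its correlations, and the other array that stands apart, NRCWE-025 54 µg day 28 replicate 5, gave the lowest Selplg reading of all 69 (0.057). On these arrays the heart muscle list stood at 4.16 and 3.49 and the fat list at 4.27 and 3.83. These levels lie within the wide ranges of the day 1 controls, although the second array is a lung of day 28. With group means removed, Selplg correlated over the 69 arrays at 0.041 with the heart list and 0.028 with the fat list. The share of probes well above background was 51.6% and 48.2% on these arrays. Whether these tissues or that share take part in the low Selplg readings was not tested.

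Of the immunoglobulin-family ligands of the integrins, Vcam1 changed and Icam1 did not pass the test. VCAM-1, encoded by Vcam1 on chromosome 3 at 116110020 to 116129688, binds the alpha 4 integrins of monocytes and lymphocytes and is made by endothelium and other cells under inflammatory signals. The 5 day 1 controls read -0.777, -1.078, -0.961, -0.500 and -0.600. With 162 µg of NRCWE-030 the readings were -0.028, -0.342, -0.374, -0.094 and -0.107, all above the highest control. With 162 µg of NRCWE-025 they were -0.247, -0.801, -0.442, -0.3 and -0.032, and 4 of 5 were above all controls.

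Vcam1 means on day 1 were ordered by dose with both materials, although among the doses only 162 µg of NRCWE-030 was called. With NRCWE-030 they were -0.70 ± 0.25 at 18 µg, -0.53 ± 0.14 at 54 µg and -0.19 ± 0.16 at 162 µg (SD, n = 5 each), from -0.78 ± 0.24 in controls. With NRCWE-025 they were -0.65 ± 0.19, -0.50 ± 0.22 and -0.36 ± 0.29 (SD, n = 5 each). The difference at 162 µg of NRCWE-025 was 0.42 with an interval from 0.12 to 0.71, and was not called (adjusted p = 0.208, limma). The control lungs of day 1 had the lowest Vcam1 mean of the 14 groups. The 2 Vcam1 probes were both higher at 162 µg of NRCWE-030, by 0.68 and 0.51, and neither was called on its own over all probes (adjusted p = 0.214 and 0.245, limma).

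Icam1, on chromosome 9 at 21015940 to 21028814, encodes ICAM-1, the endothelial partner of the beta 2 integrins. It was 2.76 ± 0.43 in day 1 controls and 2.92 ± 0.22 with 162 µg of NRCWE-030 (SD, n = 5 each), a difference of 0.16 with an interval from -0.21 to 0.52 (adjusted p = 0.820, limma). The control arrays alone ran from 2.12 to 3.21, and Icam1 had the largest pooled SD of the 9 members (0.446). On day 28 its mean was 3.02 ± 0.41 in controls (SD, n = 5), the highest of the 14 groups, and all 6 exposed groups of that day were lower, between 2.54 and 2.77, with no call.

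The integrins followed. Itgam, on chromosome 7 at 128062640 to 128118491, encodes the alpha M chain, which pairs with the beta 2 chain as Mac-1 on neutrophils, monocytes and macrophages. The 5 day 1 controls read 0.140, 0.414, 0.260, 0.389 and 0.233. With 162 µg of NRCWE-030 the readings were 1.097, 0.832, 0.656, 0.517 and 0.639, and the lowest was above the highest control. With 162 µg of NRCWE-025 they were 0.326, 0.343, 0.304, 1.255 and 0.298, so that 4 arrays lay within the control range and replicate 4 far above it.

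Itgam was the member called by the test of dose over control, 18, 54 and 162 µg of NRCWE-030 on day 1 (F = 9.81, adjusted p = 0.0434, limma). Vcam1 followed with F = 8.84 and an adjusted p of 0.0574. The 1 call in 9 members stands against 0.965% of all genes called by this test. Itgam means were 0.31 ± 0.07 at 18 µg, 0.56 ± 0.16 at 54 µg and 0.75 ± 0.23 at 162 µg, from 0.29 ± 0.11 in controls (SD, n = 5 each). At 54 µg, where 0 of 9 members and 0.08% of all genes were called, Itgam was 0.27 higher (adjusted p = 0.368, limma). At 18 µg 0 of 9 members and 0.00533% of all genes were called. The NRCWE-025 group at 162 µg was 0.22 above controls on day 1 (adjusted p = 0.601, limma), and 0.03 above them without replicate 4.

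The 2 Itgam probes differed in the size of their response. A_52_P669155, well above background on 59 of 69 arrays, read 0.978, 0.847, 0.684, 0.512 and 0.771 at 162 µg of NRCWE-030 against 0.057, 0.261, 0.124, 0.248 and 0.145 in day 1 controls. It was 0.59 higher and was called over all probes (adjusted p = 0.00255, limma). A_51_P103007, well above background on 60 arrays, was 0.33 higher and was not called (adjusted p = 0.440, limma). In day 1 controls A_52_P669155 was well above background on 3 of 5 arrays and A_51_P103007 on 4 of 5.

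**Figure D2:**
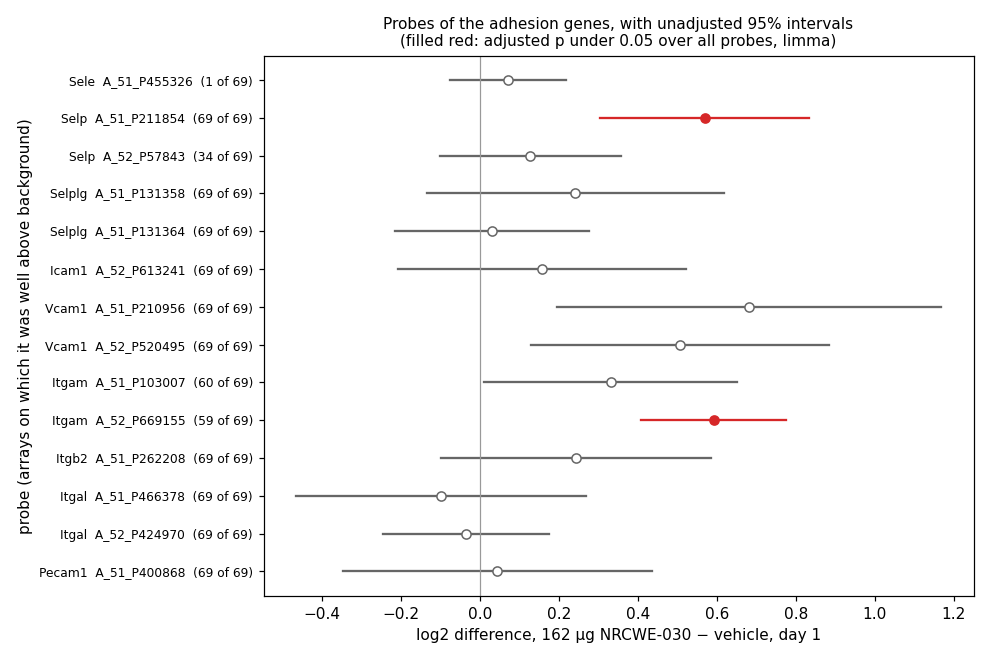
Log2 difference between 162 µg of NRCWE-030 and vehicle on day 1 for each of the 14 probes of the 9 members, with 95% intervals not adjusted for multiple testing. The number in brackets is how many of the 69 arrays had the probe well above background. Of the Selp and Itgam probes, A_51_P211854 (0.57) and A_52_P669155 (0.59) were called and their partners (0.13 and 0.33) were not.

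Itgb2, on chromosome 10 at 77530329 to 77565708, encodes the beta 2 chain shared by Mac-1 and LFA-1. On day 1 it was 0.24 above controls at 162 µg of NRCWE-030 with an interval from -0.10 to 0.59 (adjusted p = 0.609, limma). On day 28 it was 0.35 above them (interval -0.02 to 0.72, adjusted p = 0.691, limma), and this group had the highest Itgb2 mean of all (0.42 ± 0.39, SD, n = 5). Its arrays ran from -0.015 to 0.905 and the day 28 controls from -0.226 to 0.397, so the groups overlapped.

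Itgal, on chromosome 7 at 127296139 to 127335137, encodes the alpha L chain of LFA-1, the chief integrin of lymphocytes. It was the member with the lowest difference at 162 µg of NRCWE-030 on day 1, -0.07 with an interval from -0.31 to 0.17 (adjusted p = 0.8995, limma). Its highest group mean was 0.79 ± 0.28 (SD, n = 5) with 18 µg of NRCWE-030 on day 28 and its lowest 0.29 ± 0.18 (SD, n = 5) with 54 µg of that material on day 1. No dose of either material gave a call.

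Pecam1, on chromosome 11 at 106654213 to 106715281, encodes PECAM-1 of endothelial junctions, platelets and many leukocytes. It was 2.75 ± 0.20 in day 1 controls and 2.79 ± 0.26 with 162 µg of NRCWE-030 (SD, n = 5 each), a difference of 0.04 with an interval from -0.35 to 0.44 (adjusted p = 0.9695, limma). On day 28 the controls had the highest mean of the 14 groups (3.09 ± 0.26, SD, n = 5). The 18 µg NRCWE-025 lungs of that day, the lowest group, read 2.69 ± 0.08 (SD, n = 5), 0.40 below the controls with no call (adjusted p = 0.461, limma).

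**Figure D3:**
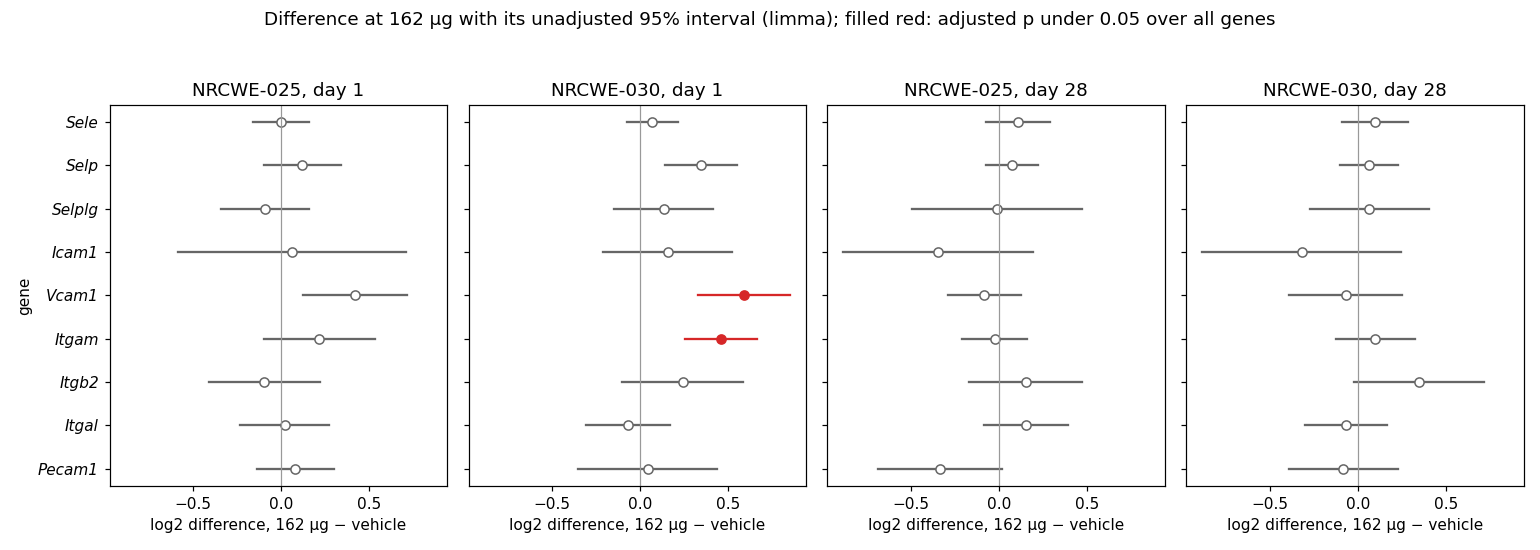
Log2 difference between 162 µg and the vehicle controls of the same day for the 9 members, in a panel for each material and day, with 95% intervals not adjusted for multiple testing. Filled red points are called genes, which are Vcam1 (0.59) and Itgam (0.46) with NRCWE-030 on day 1, and no member is called in the other panels.

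For 3 of the 9 members (Selp, Vcam1 and Itgam) all 5 arrays of 162 µg NRCWE-030 on day 1 lay above all 5 controls, and 2.91% of all genes did so. On the 2 slides that held a day 1 control and a 162 µg NRCWE-030 array, the differences on the same slide were 0.423 and 0.708 for Itgam, 0.226 and 0.472 for Vcam1, and 0.21 and 0.881 for Selp. Of the other members, Selplg (-0.165 and -0.046), Itgb2 (-0.332 and -0.160), Pecam1 (-0.155 and -0.134) and Itgal (-0.438 and -0.355) were lower than the control on both slides, which for Selplg, Itgb2 and Pecam1 is the opposite of their group differences. Icam1 was 0.006 and 0.031 higher. With slide as a fixed block Vcam1 was 0.36 higher, down from 0.59, and was not called (adjusted p = 0.259). Itgam was 0.45 higher, near its main value of 0.46, and was not called (adjusted p = 0.175). With scan day as a fixed block Vcam1 was 0.42 higher (adjusted p = 0.274) and Itgam 0.44 higher (adjusted p = 0.214), limma. Leaving out control replicate 1 or treated replicate 2 ended the Itgam call (adjusted p = 0.0527 and 0.063, limma), and leaving out control replicate 2 or treated replicate 1 ended that of Vcam1 (adjusted p = 0.0548 and 0.0514, limma). The dose test of Itgam kept its call in 3 of 20 fits that left out 1 array each. Without the 2 arrays that stand apart, the dose test called Vcam1 (adjusted p = 0.0353) and not Itgam (adjusted p = 0.0515), limma.

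The other dose tests called 0 of 9 members. On day 1 with NRCWE-025 this stood against 0.0213% of all genes (Vcam1 alone was under 0.05 without adjustment, as were 9.98% of all genes). On day 28 it stood against 0.0267% for NRCWE-025 and 0.101% for NRCWE-030, with no member under an unadjusted 0.05 (5.78% and 7.06% of all genes). At 162 µg of NRCWE-025 on day 1, 0 of 9 members and 0.213% of all genes were called, and Vcam1 was the member under an unadjusted 0.05 (12.3% of all genes). At its lower doses neither a member nor any other gene was called, and no member was under an unadjusted 0.05 (5.13% of all genes at 18 µg and 6.54% at 54 µg). At the lower doses of NRCWE-030 on day 1 the members under an unadjusted 0.05 were Selplg at 18 µg, which was lower than controls (7.31% of all genes), and Itgam and Sele at 54 µg (8.77%), the second on a probe near background.

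On day 28, 0 of 9 members were called at 18, 54 and 162 µg of NRCWE-025, against 0.0587%, 0.0267% and 0.016% of all genes. Pecam1 at 18 µg and Vcam1 at 54 µg, both lower than controls, were the members under an unadjusted 0.05, where 8.88%, 7.07% and 7.22% of all genes were at the 3 doses. The same doses of NRCWE-030 called 0 of 9 members against 0.117%, 0.0533% and 0.096% of all genes, with no member under an unadjusted 0.05 (9.02%, 6.5% and 7.51% of all genes).

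The materials were compared at matched dose and day. At 162 µg on day 1 the members that rose with NRCWE-030 were higher than with NRCWE-025 by 0.24 for Itgam (interval -9e-04 to 0.49) and 0.18 for Vcam1 (interval -0.10 to 0.45), and Selp was higher by 0.23 (interval 0.05 to 0.41). None of these differences was called (adjusted p = 0.819, 0.880 and 0.760, limma), and in this comparison 0% of all genes were (6.13% without adjustment, Selp among them). Tested over the 3 doses together, 0 of 9 members differed between materials on day 1 or day 28, against 0.155% and 0.24% of all genes. No member was under an unadjusted 0.05 there (7.8% and 6.3% of all genes).

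The effect of 162 µg on day 1 was also set against that on day 28. With NRCWE-030 the day 1 effect exceeded that of day 28 by 0.66 for Vcam1 (interval 0.28 to 1.05), 0.36 for Itgam (0.02 to 0.71) and 0.29 for Selp (0.03 to 0.54). None was called (adjusted p = 0.162, 0.607 and 0.566, limma), against 0.224% of all genes, and these 3 members were under an unadjusted 0.05 (7.67% of all genes). With NRCWE-025 0 of 9 members were called against 0.0587% of all genes, and Vcam1 had the lowest adjusted p (difference 0.50, interval 0.11 to 0.90, adjusted p = 0.337, limma), the member under an unadjusted 0.05 (10.5% of all genes). Control lungs of the 2 days differed too. Vcam1 was 0.41 higher in day 28 controls (interval 0.14 to 0.68, adjusted p = 0.324, limma) and Pecam1 0.35 higher (0.02 to 0.67, adjusted p = 0.542, limma). Of the 9 members 8 were higher on day 28, with a median of 0.153 against -0.0077 over all genes, and 0 were called where 0.0373% of all genes were (8.49% without adjustment, Vcam1 and Pecam1 among them).

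Over the 14 groups the highest mean was that of NRCWE-030 at 162 µg on day 1 for Selp, Selplg, Vcam1 and Itgam. The order of the Sele means is that of a probe near background and is not read. Between neighbours in the order of group means the step was smaller than the pooled SD of the gene throughout, except for Selp, where this group stood 0.178 above the next (pooled SD 0.142). The range of the group means was 0.594 for Vcam1 (pooled SD 0.218), 0.461 for Itgam (0.195) and 0.373 for Selp. The largest was that of Itgb2 (0.672).

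Members also varied together from lung to lung. After removal of each group's mean, Selp and Itgam correlated at 0.65 over the 69 arrays (0.88 over the 14 group means), and Selplg and Itgb2 at 0.63 (0.85 over the group means). Next were Selplg with Itgam (0.49) and Vcam1 with Itgb2 (0.48). Vcam1 and Itgam, the members that were called, correlated at 0.09 from lung to lung but at 0.82 over the group means. Without NRCWE-025 replicate 4 and NRCWE-030 replicate 1 of the 162 µg day 1 groups, the value for Selp and Itgam was 0.49. Arrays share the reference RNA and their slides, and genes of the same cells share the number of those cells, so these values are descriptions only.

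**Figure D4:**
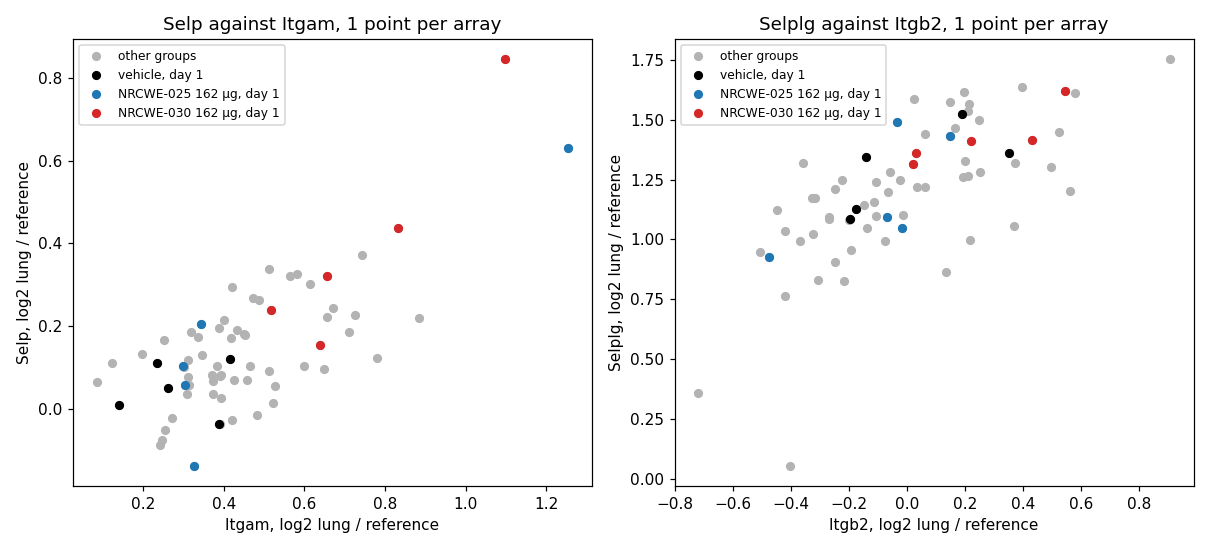
Log2 ratio of lung over reference RNA of Selp against Itgam and of Selplg against Itgb2, with 1 point per array (69 arrays). The highest points for Selp and Itgam are NRCWE-030 replicate 1 (0.845 and 1.097) and NRCWE-025 replicate 4 (0.631 and 1.255) at 162 µg on day 1.

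The promoters of Itgam and Selp are shown because these genes varied together, and that of Icam1 as a member with no call. They are the 250 bases before the start in RefSeq (GRCm38.p6), plus strand, at chr7:128062390-128062639 (Itgam), chr1:164115014-164115263 (Selp) and chr9:21015690-21015939 (Icam1), and the table held 4 of the 9 members. Capitals mark matches, on either strand, to GAGGAA (a core of PU.1 sites) or TGANTCA (AP-1).
Itgam: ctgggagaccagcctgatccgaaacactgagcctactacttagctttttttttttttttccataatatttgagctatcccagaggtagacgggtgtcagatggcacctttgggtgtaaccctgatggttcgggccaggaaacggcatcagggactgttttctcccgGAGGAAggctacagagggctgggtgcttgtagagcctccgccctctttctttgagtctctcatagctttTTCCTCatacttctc
Selp: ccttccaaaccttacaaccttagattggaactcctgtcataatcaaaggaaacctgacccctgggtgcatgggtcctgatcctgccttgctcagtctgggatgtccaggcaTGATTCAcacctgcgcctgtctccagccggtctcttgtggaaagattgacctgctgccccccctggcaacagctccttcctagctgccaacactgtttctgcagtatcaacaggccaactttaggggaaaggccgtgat
Icam1: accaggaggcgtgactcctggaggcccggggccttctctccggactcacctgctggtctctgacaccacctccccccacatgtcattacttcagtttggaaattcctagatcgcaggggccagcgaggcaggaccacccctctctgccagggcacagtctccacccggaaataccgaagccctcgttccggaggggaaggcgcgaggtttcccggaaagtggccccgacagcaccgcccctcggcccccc
Itgam held GAGGAA 84 bases before the start and, on the other strand, 15 bases before it, a motif found in 23.3% of the 32851 promoters of this length. Selp held TGANTCA 139 bases before the start (6.75% of promoters). No match to either motif or to the NF-kB pattern searched, GGGRNNYYCC (7.25% of promoters), was in the Icam1 window. The other windows lacked this NF-kB pattern too. The pattern is strict: the Icam1 window holds tggaaattcc, which differs from it in the first base only. Whether such near matches are NF-kB sites was not tested. The Sele window, not shown, held matches to GAGGAA and to TGANTCA. No match overlapped one of the other motif. A match is a description of the sequence and not a site, and its absence says only that these letters are not in this window.

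The wider adhesion pathway was read through 4 lists of other genes at 162 µg of NRCWE-030 on day 1. Over all genes, 1.74% were called in this comparison (1.25% higher and 0.491% lower), and the single calls of the lists are descriptions beside that share. Of 19 other selectin and selectin ligand genes 1 rose, B4galt1, a galactosyltransferase of glycan chains (0.59, adjusted p = 0.0219, limma), and the median was 0.018. Of 15 integrin activation genes 1 rose, Vav1, a guanine nucleotide exchange factor of blood cells (0.62, adjusted p = 0.0472, limma), and the median was 0.16. None of 12 other leukocyte integrins passed (median 0.043), and Itgax, the alpha X chain, was 0.54 higher on day 1 (adjusted p = 0.0606) and 0.61 higher on day 28 (adjusted p = 0.112, limma). None of 19 other endothelial and immunoglobulin-family genes passed (median -0.001), and the smallest p over the dose tests and 162 µg comparisons was that of Pvr (dose test of NRCWE-030 on day 1, adjusted p = 0.115, limma).

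With NRCWE-025 at 162 µg on day 1, 0.213% of all genes were called. Plaur, the urokinase receptor, was the called gene of the 4 lists there (0.64, adjusted p = 0.0389, limma). It was 0.72 higher with NRCWE-030, where it was not called (adjusted p = 0.0717, limma). On day 28 no gene of the 4 lists was called at 162 µg or by the dose tests. At 162 µg, 0.016% (NRCWE-025) and 0.096% (NRCWE-030) of all genes were called that day, and by the dose tests 0.0267% and 0.101%.

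Cytokines and factors known to induce adhesion molecules were read in the same lungs. Of 17 measured, 14 were higher and 3 rose with 162 µg of NRCWE-030 on day 1: Ccl2, a monocyte chemokine (2.09, adjusted p = 0.0197), Il1b (1.27, adjusted p = 0.0151) and Il6 (adjusted p = 0.0366), limma. Over all genes, 1.25% were called higher in this comparison, and the median difference was 0.0044. The Il6 probe was well above background on 0 of 5 day 1 controls and on 42 of 69 arrays, so the size of its rise is not given. Cxcl2 and Il1a were well above background on 4 and 5 of 69 arrays and on 0 of 5 day 1 controls. Both count in the list, its median and its mean level. The median of the list was 0.279. Its mean level was between -0.56 and -0.383 in the 5 controls and between -0.249 and 0.284 in the 5 treated lungs, with no overlap. Of single genes, 2.91% were higher on every treated array than on every control array. This share does not apply to means over many genes, for which no share was computed.

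Among myeloid markers, 1 neutrophil gene and 1 monocyte and macrophage gene rose beside Itgam, in a comparison where 1.25% of all genes were called higher. In bulk lung RNA, more cells of a type and more RNA per cell cannot be told apart. Of 11 neutrophil markers 1 rose at 162 µg of NRCWE-030 on day 1, Csf3r, the receptor of granulocyte colony-stimulating factor (1.25, adjusted p = 0.00264, limma), while S100a8 (0.30) and S100a9 (-0.20) were not called. The mean of the neutrophil list was 1.15 to 1.43 in controls and 1.41 to 1.77 in treated lungs, and 8 of its 11 genes were well above background on most arrays. Of 9 monocyte and macrophage markers 1 rose, Msr1, a scavenger receptor (0.98, adjusted p = 0.00681, limma), and the list ran from 2.03 to 2.43 in controls and from 2.20 to 2.54 in treated lungs. From lung to lung, with group means removed, Itgam correlated at 0.46 with the neutrophil list and 0.17 with the monocyte and macrophage list. It correlated at 0.59 with the T cell list, 0.45 with the B cell list and 0.40 with the NK cell list. The part of these cells in the Itgam difference was not tested.

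Endothelial and platelet markers gave no call, in a comparison where 1.74% of all genes were called (0.491% lower). None of 11 endothelial markers passed (median -0.131, list mean 4.67 to 5.00 in controls and 4.60 to 4.86 in treated lungs), and none of 6 platelet markers did (median -0.053, 0.669 to 0.932 and 0.686 to 0.865). Which cells gave the higher Vcam1 readings was not tested. All 5 B cell markers read lower (median -0.394), and 1 was called, Cd22 (-0.39, adjusted p = 0.0496, limma). All 4 fat markers read lower (median -1.07), from -0.59 for Plin1 to -2.76 for Cfd, and 1 was called, Cidec (-1.36, adjusted p = 0.0302, limma). No marker of T cells (7), NK cells (6), mast cells and basophils (4), lung epithelium (5) or heart muscle (5) was called. Of the 4 mast cell and basophil markers 1 was well above background on most arrays. The medians of the epithelium and heart lists were -0.505 and -0.484. The part of these cells and tissues in the differences of the members was not tested.

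For each member the 3 other genes with the most similar pattern over the 14 group means were found. For Itgam they were Crlf2 (r = 0.95), Traf3 (0.93) and Cd177 (0.92), for Vcam1 Litaf, Slamf8 and Slfn4 (0.91, 0.90 and 0.90), and for Selp Cd80, Gnptab and Rpp30 (0.95, 0.92 and 0.91). Itgal was most like Gzma (0.94), Ccl5 (0.93) and Itgb7 (0.92), and Itgb7 also followed it from lung to lung within groups (0.74 over 69 arrays). For Selplg they were Tcp1, Cnst and Gabarap (0.87 to 0.90), for Itgb2 Ppp3cc, Cops5 and Scfd1 (0.87 to 0.89), for Icam1 Olfr397, Mapkapk2 and Pth1r (0.88 to 0.91) and for Pecam1 Lsm14a, Herc2 and Olfr225 (0.87 to 0.88). For Sele, near background, they were Itgae, Cyp2r1 and C330018D20Rik (0.80 to 0.83). Each is the highest of 18753 genes over only 14 points, with no test.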

How the data were processed

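The 69 arrays were 2-colour Agilent arrays, 1 per mouse, with lung RNA in Cy5 and reference RNA in Cy3 and no dye swap. Per the file headers, the authors' scanner output came from Agilent Feature Extraction 11.0.1.1 (protocol GE2_1100_Jul11). The deposited intensity values used were the median pixel intensity of spot and local background, without correction. The scanner files also held the software's own log10 ratio of Cy5 over Cy3, and the authors deposited a table of processed log2 ratios. Both were used as alternatives only. In the authors' log2 table the centring and any filter are not stated, and its values correlated with loess values without background correction at a median of 0.996.

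Groups came from the labels. Of 45018 spots, 43379 were no controls. Local backgrounds marked as outliers by the scanner (1.54% in Cy5, 1.04% in Cy3) took the median of that array's unmarked backgrounds, followed by normexp (offset 50) and loess within arrays in limma 3.58.1 under R 4.3.3. Spots marked as outliers (0.292%) were left out. The median over spots, and over probes of a RefSeq symbol (27484 of 41174 probes), gave 18753 genes. Gene positions and promoters are from RefSeq tables (GRCm38.p6); the arrays were designed on mm9, whose coordinates were not used.

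Dose was tested within each material and day by a moderated F-test and contrasts, and materials, days and controls in a fit of all 14 groups, with Benjamini-Hochberg adjustment over all genes. The scripts were tested on simulated data. All 9 members were named in every comparison. From the adhesion lists, genes called by the dose tests or at 162 µg were named (up to 12), and otherwise the gene with the smallest p of a list. The members and lists were chosen with earlier results of these data known. Marker and cytokine genes named as examples were chosen after their values were seen. Alternatives were other background corrections, normalizations, filters, probe rules, batch terms, an F-test without moderation, a joint fit and leaving out each array.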

Additional observations from a re-analysis of the deposited data

Results flagged for a closer look

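In 6 of 126 sets of 4 or 5 arrays (9 members in 14 groups), the highest or lowest array was farther from the others than Dixon's 95% limit, and chance marks about 1 in 20. Selplg had 3 of them, all low: NRCWE-030 18 µg day 1 replicate 3 at 0.36 (next 1.05), NRCWE-025 54 µg day 28 replicate 5 at 0.057 (next 1.04) and NRCWE-030 18 µg day 28 replicate 5 at 0.907 (next 1.22). The first 2 of these are the arrays that correlated least with all others. Itgam of NRCWE-025 162 µg day 1 replicate 4 was 1.255 (next 0.343), and on this array the neutrophil list stood at 1.94, above all day 1 controls (at most 1.43), and the list of cytokines and factors that induce adhesion molecules at 0.305, above all day 1 controls (at most -0.383). Pecam1 was low on replicate 3 of both 162 µg groups of day 1, at 2.551 with NRCWE-025 (next 2.87) and 2.352 with NRCWE-030 (next 2.81). The cause of these readings was not tested.

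Vcam1 at 54 µg of NRCWE-025 moved in opposite ways on the 2 days: all 5 arrays were above the control mean on day 1 (mean difference 0.285) and all 5 below it on day 28 (-0.219). The treated means of the 2 days were -0.498 and -0.592, while the control means were -0.783 and -0.373, so the controls differed more between days than the treated lungs. The difference between these effects was not tested.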

How the results depend on the processing

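Of the members called by the dose test of NRCWE-030 on day 1, the count went from 1 to 0 without background correction, with the authors' processed table, with a fixed term for slide or for scan day, and with an F-test without moderation. It went to 2 with slide as a random block and to 3 (Itgam, Selp and Vcam1) with all 14 groups in 1 fit, and was between 0 and 1 when each array was left out. At 162 µg of NRCWE-030 on day 1 the count went from 2 to 1 (Vcam1) without background correction or with the processed table, and to 0 with a fixed term for slide or for scan day. It was between 1 and 3 when each array was left out. The count with the replicate as a block is absent: no paired analysis was possible because the replicate numbers follow accession order and pair no mice.

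For single members at that dose, the adjusted p of Itgam was 0.0525 without background correction, 0.0729 with the processed table and 0.0862 with the scanner's log ratio, where the difference was 0.99. That of Vcam1 was 0.163 for its brightest probe. Selp was called with its brightest probe (0.57, adjusted p = 0.0258), with slide as a random block (adjusted p = 0.0435), with all 14 groups in 1 fit (adjusted p = 0.018) and without treated replicate 5 (adjusted p = 0.0492), all limma. Sele was called at this dose with the scanner's log ratio alone (1.96, adjusted p = 0.00226, limma), and by the dose test in that setting too. That setting has no offset, and the Sele probe was near background. No called member changed direction in any setting run.

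The count of all genes called at this dose, 326, was 509 and 68 with slide as a random and a fixed block, 49 with scan day as a fixed block, 534 with the scanner's log ratio, 200 without moderation, 591 in 1 fit of all groups and 473 without the 2 arrays that stand apart, an alternative chosen after seeing the data, as was an offset of 16 (309). For the dose test it was 181, and 463, 109, 70, 193, 74, 464, 250 and 181 in the same order. The causes were not tested. Slides and scan days did not hold all groups evenly, so a fixed block compares few arrays. The offset of 50 draws the differences of dim probes towards 0, above all those of Sele (well above background on 1 of 69 arrays) and of the dimmer Selp probe (34 of 69). The Itgam probes (59 and 60 of 69) were dim as well. The size of the Itgam difference at 162 µg of NRCWE-030 on day 1 depended on the setting. It was 0.46 in the main values, 0.46 without background correction and 0.99 with the scanner's log ratio. Which step of the processing made this difference was not tested.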
